A study of Sus scrofa with 6 samples.

Results

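Genes of the actin cytoskeleton and of mesenchymal cells were examined in porcine granulosa cells (GCs) that overexpressed retinol binding protein 4 (*RBP4*), the plasma carrier of retinol. The 10 genes asked for were *ACTA2*, *ACTB*, *ACTG1*, *TAGLN*, *MYL9*, *CNN1*, *TPM1*, *TPM2*, *VIM* and *MYH9*, chosen by name, with earlier results of these data known. The table of expression values covers 17950 Ensembl genes, and 9 of the 10 were found in it by symbol. For *MYL9*, a regulatory light chain of smooth muscle and non-muscle myosin, the identifier paired with the symbol has no row in the table, so it is not analysed here. All 9 genes found had a mean above 1 FPKM (fragments scaled to transcript length and to the mapped fragments of a library) over both groups.

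The GCs came from ovaries of pre-pubertal Landrace gilts collected at a slaughterhouse, were aspirated with the follicular fluid, and were cultured in medium with serum. The pLVX-*RBP4* group was infected for 72 h with a lentivirus made from pLVX-*RBP4*-IRES-ZsGreen, and the CTRL group with the blank pLVX-IRES-ZsGreen virus, so both groups carried the virus and the green fluorescent marker. The cells were attached primary cells and not a purified line, and no sort by fluorescence is described. Each group had 3 libraries, described as biological triplicates, and the deposited table combines them into 1 value per gene and group.

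Because the table holds 1 value per gene and group, the spread between replicates is not known, no test between the groups could be made, and no value below has an SD or p-value. Each FPKM is the authors' value for a group. A difference is the log2(FPKM + 1) of the pLVX-*RBP4* group minus that of the CTRL group, and on this scale the change of a weak gene comes out too small. The introduced gene itself went with the labels, with 1.10 FPKM in CTRL and 92.3 FPKM in pLVX-*RBP4* cells. The number of reads behind a value is not in the table, and the depth per gene is therefore unknown. In 123 of 865 genes with a mean under 0.1 FPKM and above 0 in both groups, the value of the pLVX-*RBP4* group was between 0.7 and 0.8 of the CTRL value, the most frequent interval of that width.

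Actin filaments are built from closely related actins. *ACTB* and *ACTG1* encode the cytoplasmic actins that every cell uses, and *ACTA2* and *ACTG2* encode the actins of smooth muscle. Tropomyosins lie along the filament, calponin and transgelin bind it, and myosin II pulls on it, which gives contraction in muscle and tension in stress fibres of cultured cells. In the follicle, *ACTA2* and smooth muscle proteins are known from the theca externa and from vessel walls, while vimentin, the intermediate filament of mesenchymal cells, is also found in GCs. Cells that attach to plastic in serum form stress fibres and commonly raise such genes, so none of the 9 genes alone marks a cell type. In bulk RNA, fewer cells of a type and less RNA per cell cannot be told apart.

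The 9 genes were among the most abundant of the table. With 8 of 9 above a mean of 100 FPKM and 5 among the 100 highest genes, only *CNN1*, the calponin of smooth muscle, was at a moderate level. Together they summed to 19556 FPKM in CTRL and 19190 FPKM in pLVX-*RBP4* cells, or 1.73% and 1.80% of all FPKM. FPKM is scaled to transcript length, which allows a rough comparison of levels between genes. Reads shared between actin genes limit it, as described below.

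The cytoplasmic actins led the order of levels. *ACTG1* (ENSSSCG00000028355, cytoplasmic gamma-actin) had 7780 FPKM in CTRL and 7098 FPKM in pLVX-*RBP4* cells, and ranked 5th of all 17950 genes by mean. *ACTB* (ENSSSCG00000007585, cytoplasmic beta-actin) had 3696 FPKM and 3402 FPKM and ranked 19th. Both were lower in pLVX-*RBP4* cells, with a change of -8.77% for *ACTG1* (difference -0.13) and of -7.95% for *ACTB* (difference -0.12). *ACTA2* (ENSSSCG00000010447, smooth muscle alpha-actin) had 644.1 FPKM in CTRL and 687.8 FPKM in pLVX-*RBP4* cells, a difference of 0.095.

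The actin-binding genes of smooth muscle lay far apart in level. *TAGLN* (ENSSSCG00000015073, transgelin) had 1809 FPKM in CTRL and 1891 FPKM in pLVX-*RBP4* cells, a difference of 0.064. *CNN1* (ENSSSCG00000013614) had 18.6 FPKM and 19.0 FPKM, a difference of 0.032 and the smallest of the 9. The level of *TAGLN* was thus between those of *VIM* and *TPM2*, and that of *CNN1* was well below every other gene of the 9.

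Both tropomyosins of the 9 genes had more FPKM with *RBP4*. *TPM2* (ENSSSCG00000005316, beta-tropomyosin) had 1566 FPKM in CTRL and 1767 FPKM in pLVX-*RBP4* cells, 12.9% more and a difference of 0.17, the highest of the 9. *TPM1* (ENSSSCG00000004570, alpha-tropomyosin) had 245.8 FPKM and 260.6 FPKM, a difference of 0.084. *TPM2* was the dominant tropomyosin found by symbol in both groups.

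*VIM* (ENSSSCG00000011033, vimentin) had 3058 FPKM in CTRL and 3435 FPKM in pLVX-*RBP4* cells, 12.3% more and a difference of 0.17. *MYH9* (ENSSSCG00000000145, the heavy chain of non-muscle myosin IIA, the motor of stress fibres) had 737.8 FPKM and 628.8 FPKM, a change of -14.8%. Its difference of -0.23 was the largest of the 9 in size, and it was opposite in sign to those of the tropomyosins and vimentin.

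**Figure D1:**
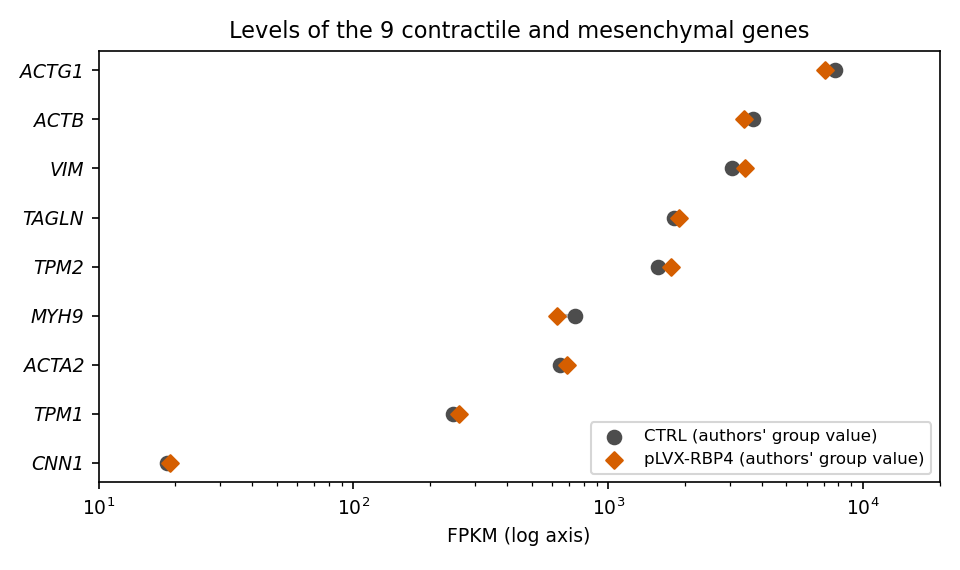
FPKM of the 9 genes on a log axis, with circles for the CTRL group and diamonds for the pLVX-*RBP4* group, each the authors' single value for the group and with no error bar because no spread is known. The symbols of each gene lie close together, from *CNN1* at 18.6 and 19.0 FPKM to *ACTG1* at 7780 and 7098 FPKM, and the widest relative gap is that of *MYH9*.

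The order of levels differed between the groups at 2 places. In the CTRL group it ran *ACTG1*, *ACTB*, *VIM*, *TAGLN*, *TPM2*, *MYH9*, *ACTA2*, *TPM1* and *CNN1*. In the pLVX-*RBP4* group *VIM* (3435 FPKM) stood just above *ACTB* (3402 FPKM), and *ACTA2* (687.8 FPKM) above *MYH9* (628.8 FPKM). With no spread between libraries, whether these neighbours differ within a group cannot be said.

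Of the 9 genes, 6 were higher with *RBP4* and 3 were lower, beside 50.2% higher and 49.8% lower among the 12382 genes with a mean of at least 1 FPKM. After upper quartile scaling the split of the 9 was 5 and 4, and after scaling to a common sum without the 10 most abundant genes it was 2 and 7. Among the 1092 genes with a mean of at least 100 FPKM, 67.1% were higher and 32.9% lower. None of the 9 reached a difference of 0.25 in either direction, while 21.7% of the 12382 genes (12.2% upward and 9.58% downward) and 20.7% of the 1092 abundant genes did, so no gene of the 9 was past a size that is common in this table. A difference of 0.5 was reached by 0 of the 9 and by 4.05% of the 12382 genes. The median of the 9 was 0.064, against 0.0014 for all 12382 genes and 0.084 for the abundant ones. The directions of *ACTB*, *ACTG1*, *MYH9*, *TPM2* and *VIM* were the same under each scaling of the groups, whereas *CNN1* was lower after upper quartile scaling (-0.0043) and *CNN1*, *TAGLN*, *TPM1* and *ACTA2* were lower after scaling to a common sum without the 10 most abundant genes, which also moved the median of all genes to -0.12.

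Set beside all genes, even the largest difference was ordinary in size. For *MYH9*, 75.0% of the 12382 genes had a smaller absolute difference, and for *TPM2* and *VIM* the shares were 62.9% and 61.0%. *CNN1* was exceeded by most genes, with 12.9% having a smaller one. Of the 1092 abundant genes, 35 (3.21%) had a lower difference than the -0.23 of *MYH9*, and 114 (10.4%) a lower one than *ACTG1*. A decrease of 0.25 or more was found in 2.75% of the abundant genes, and an increase of that size in 17.9%. The genes named in the table whose 2 group values lay nearest to those of *MYH9*, by Euclidean distance on the log2(FPKM + 1) scale, were *PALLD* (680.7 and 614.1 FPKM in the CTRL and pLVX-*RBP4* groups, distance 0.12), which encodes the stress fibre protein palladin, *TALDO1* (694.5 and 685.4 FPKM, distance 0.15) and *CYP11A1* (672.9 and 669.4 FPKM, distance 0.16). With 2 points per gene this likeness rests on little more than a common level.

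**Figure D2:**
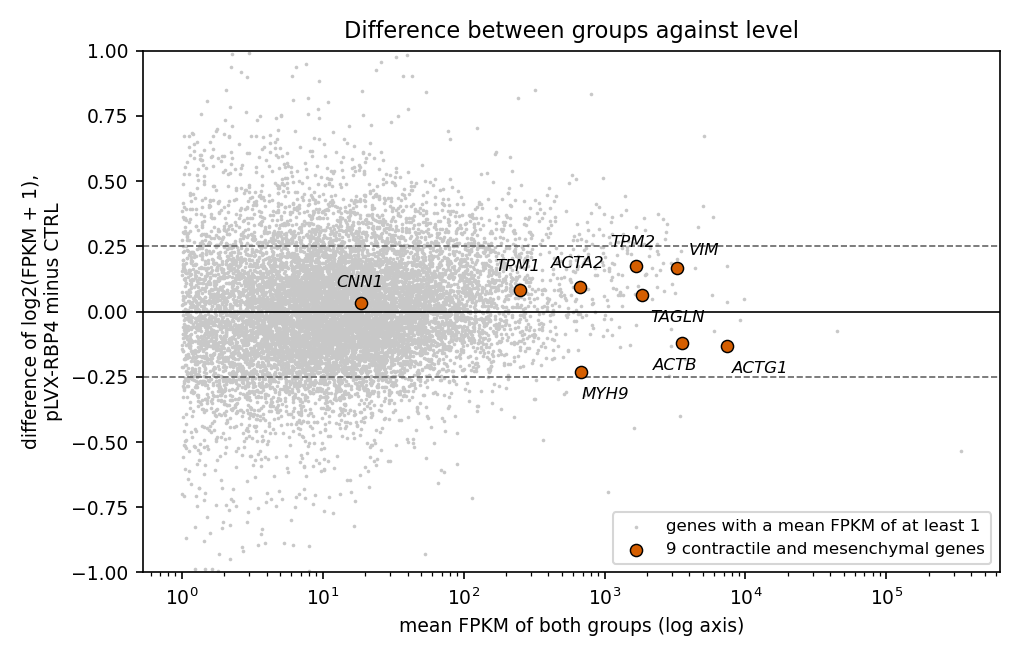
Difference of log2(FPKM + 1), pLVX-*RBP4* minus CTRL, against the mean FPKM of both groups on a log axis, for the 12382 genes with a mean of at least 1 FPKM (grey, with 118 genes outside the vertical range) and the 9 genes (orange). All 9 lie between the dashed lines at -0.25 and 0.25, with *MYH9* lowest at -0.23 and *TPM2* highest at 0.17.

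Ratios between genes of the same group do not depend on how a group was scaled. *ACTA2* had 0.174 of the FPKM of *ACTB* in CTRL and 0.202 in pLVX-*RBP4* cells, a ratio 1.16 times as high. The proportion between the cytoplasmic actins was nearly equal in both groups, with *ACTG1* at 2.11 and 2.09 times *ACTB*. *TPM2* was at 6.37 and 6.78 times *TPM1*, and *TAGLN* at 0.592 and 0.551 of *VIM*. The remaining ratios were picked after the values had been seen. *VIM* went from 0.827 to 1.01 of *ACTB*, *TAGLN* from 0.490 to 0.556 of *ACTB*, and *ACTA2* from 0.873 to 1.09 of *MYH9*. The widest contrast among the 9, between the genes with the lowest and the highest difference, was *MYH9* at 0.471 of *TPM2* in CTRL and 0.356 in pLVX-*RBP4* cells, a log2 change of -0.41.

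*ACTB* and *GAPDH*, a glycolytic enzyme, are used as references for protein and RNA measurements in many laboratories, in this study for Western blotting and RT-qPCR. *GAPDH* had 6162 FPKM in CTRL and 5856 FPKM in pLVX-*RBP4* cells, a difference of -0.073, so both reference genes were slightly lower in the second group as deposited, while after scaling to a common sum (TPM) *GAPDH* was at 0.0063 and *ACTB* at -0.040. *ACTB* was at 0.600 of *GAPDH* in CTRL and 0.581 in pLVX-*RBP4* cells.

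**Figure D3:**
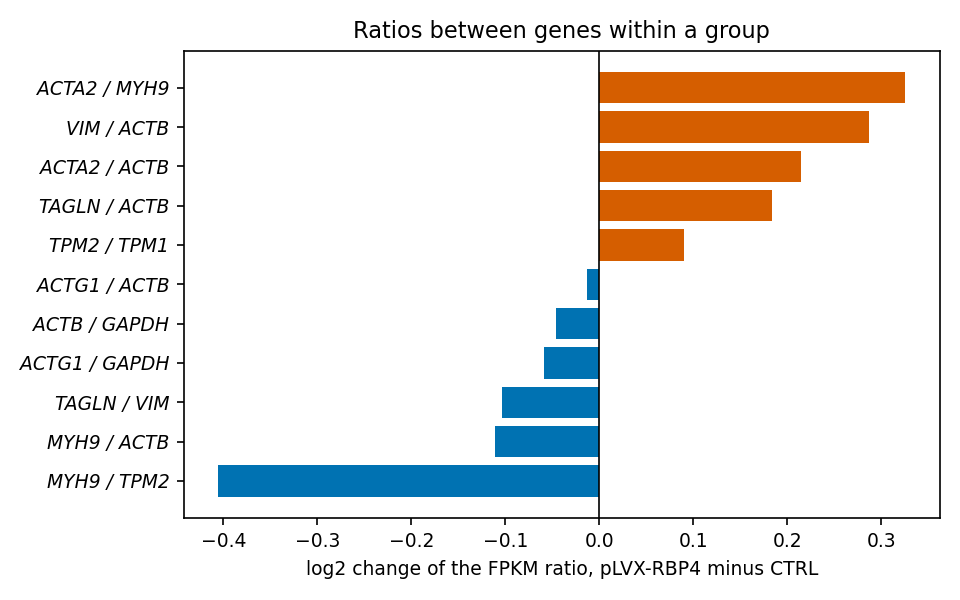
Log2 change of the ratio between the FPKM of 2 genes, pLVX-*RBP4* group minus CTRL group, 1 bar per ratio drawn, all among the 9 genes or against *GAPDH*, orange where the first gene gained on the second and blue where it lost. The ratio of *ACTG1* to *ACTB* sits next to 0, *VIM* and *ACTA2* gained on *ACTB*, and the longest of these bars is *MYH9* to *TPM2* at -0.41.

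Within the actin family, 4 of 6 genes had a mean of at least 1 FPKM. *ACTG1* made up 63.6% of their summed FPKM in CTRL and 62.9% in pLVX-*RBP4* cells, *ACTB* 30.2% in both groups, and *ACTA2* 5.27% and 6.10%. *ACTG2*, the gamma-actin of smooth muscle, had 105.0 FPKM and 94.3 FPKM, a difference of -0.15, so the smooth muscle actins *ACTA2* and *ACTG2* went in opposite directions, except after the scaling without the 10 most abundant genes, where both were lower. Of the striated muscle actins, *ACTA1* (skeletal muscle) was listed at 0 in both groups, and *ACTC1* (cardiac muscle) at 0.040 FPKM in CTRL and at 0 in pLVX-*RBP4* cells. *LPP*, a focal adhesion gene that many cells use, was also listed at 0 in both groups, so a 0 in this table may be a value that could not be estimated. Actin genes have nearly identical coding sequences and processed copies in the genome, and the FPKM do not show to which copy a shared read was given.

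Among tropomyosins, *TPM4* had 1212 FPKM in CTRL and 1268 FPKM in pLVX-*RBP4* cells, a difference of 0.064, and *TPM3* was not found by symbol. *TPM2* made up 51.8% of the summed tropomyosin FPKM in CTRL and 53.6% in pLVX-*RBP4* cells, *TPM4* 40.1% and 38.5%, and *TPM1* 8.13% and 7.91%. All 3 were higher as deposited, and 1 of 3 was higher after the scaling without the 10 most abundant genes. All 3 had a mean of at least 100 FPKM. Of the 1092 genes with such a mean 67.1% were higher, with a median of 0.084. Of calponins and transgelins, *CNN3*, an isoform of many non-muscle cells, had 262.2 FPKM and 270.8 FPKM (0.047) and was more abundant than *CNN1* in both groups.

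Myosin II genes other than *MYH9* went both ways. *MYL12A*, a regulatory light chain of non-muscle myosin, had 138.8 FPKM in CTRL and 172.2 FPKM in pLVX-*RBP4* cells, a difference of 0.31 and opposite in sign to that of its heavy chain *MYH9*. *MYLK*, the kinase of the light chain, had 34.1 and 33.0 FPKM (-0.044), and *PPP1CB*, the catalytic subunit of the light chain phosphatase, 150.2 and 158.5 FPKM (0.076). *MYH11*, the heavy chain of smooth muscle myosin, was weak, with 2.17 and 1.54 FPKM (-0.32). *MYH10*, *MYL6*, *MYL12B* and *PPP1R12A* were not found by symbol.

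The other contractile genes of smooth muscle were *CALD1* (caldesmon, 272.0 and 274.4 FPKM, difference 0.012) and *SMTN* (smoothelin, 101.2 and 87.5 FPKM, -0.21), both well expressed. *DES*, the intermediate filament protein of muscle, had 0.584 and 0.413 FPKM, and *SYNPO2* was below 0.1 FPKM in both groups. The transcription factor *SRF*, known to drive actin and contractile genes, had 25.5 and 23.5 FPKM (-0.11), and its coactivator *MRTFA*, which is held in the cytoplasm by free actin, 30.7 and 25.0 FPKM (-0.29). Of the intermediate filament list, 5 of 6 kept genes were higher, with a median of 0.029, or 2 of 6 after upper quartile scaling. Of all 12382 genes 50.2% were higher. The differences of the 5 ran from 0.021 (*KRT8*) to 0.20 (*LMNB1*). *VIM* was the most abundant gene of the list, followed by *LMNA* (423.3 and 430.8 FPKM, 0.025). *NES* was lower, with 5.14 and 3.96 FPKM (-0.31).

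The 10 lists of cytoskeletal genes that were compared held 59 genes with a mean of at least 1 FPKM, and 50 of these were not among the 9. Of the 50, 31 were higher and 19 lower, 8 (16.0%) reached a difference of 0.25 against 21.7% of all genes, 0 reached 0.5, and the median was 0.040. The split of the 50 moved with the scaling, to 25 higher and 25 lower after upper quartile scaling and to 12 and 38 without the 10 most abundant genes. In the list of actin binding and turnover, 13 of 14 were higher with a median of 0.089, or 11 after upper quartile scaling and 5 without the 10 most abundant genes. Of all 12382 genes 50.2% were higher, with a median of 0.0014. Of the 1092 genes with a mean of at least 100 FPKM 67.1% were higher, with a median of 0.084, close to that of the list. The thymosins, small proteins that hold actin monomers, were highest: *TMSB4X* had 5190 and 6677 FPKM (0.36) and *TMSB10* 4268 and 5656 FPKM (0.41). *TMSB4X* thus went from 1.40 to 1.96 times *ACTB*, 1.40 times as high, while *CFL1* (cofilin, which severs filaments, 1053 and 1070 FPKM) went from 0.285 to 0.315 of *ACTB*. *MSN* (moesin, which links actin to the membrane) was the lower gene of that list, with 330.3 and 290.3 FPKM (-0.19).

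In the list of the Arp2/3 complex, which starts branched filaments, and of other nucleators, 8 of 12 genes were higher with a median of 0.11. The 7 subunits of the complex found were all higher, between 0.089 and 0.31 (4 of 7 without the 10 most abundant genes), with *ARPC2* (1013 and 1127 FPKM, 0.15), *ARPC1B* (230.2 and 252.1 FPKM, 0.13) and *ARPC3* (199.0 and 247.0 FPKM, 0.31). Of the 5 activators and formins in the list, 4 were lower, among them *DIAPH1* (16.0 and 13.4 FPKM, -0.24). This separation of the list was noticed in its values. The 7 subunits all had a mean above 100 FPKM, and the 5 other genes were all below it. Of the 1092 genes with a mean of at least 100 FPKM 67.1% were higher, against 50.2% of all 12382 genes. Whether the separation goes with level was not tested.

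Stress fibre and focal adhesion genes, whose products join filaments to the attachment sites of the cell, had a median of -0.17, and 7 of 8 were lower, a count that was 7 or 8 under each scaling. Of all 12382 genes 49.8% were lower, and of the 1092 genes with a mean of at least 100 FPKM 32.9%. The list held 15 genes, of which 9 were found by symbol and 8 kept. The highest of the list were *CSRP1* (452.8 and 408.6 FPKM, -0.15) and *ACTN4* (alpha-actinin, which bundles filaments, 239.7 and 212.3 FPKM, -0.17), and the largest difference was that of *FLNC* (32.9 and 27.8 FPKM, -0.23). *MYH9* had a difference of the same sign as those 7 genes. *ACTN1*, *FLNA* and *PXN* were not found by symbol. Transcript lengths were not used here, and whether the differences of *MYH9*, the stress fibre genes, the thymosins or the Arp2/3 subunits go with the length of the transcript was not tested.

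**Figure D4:**
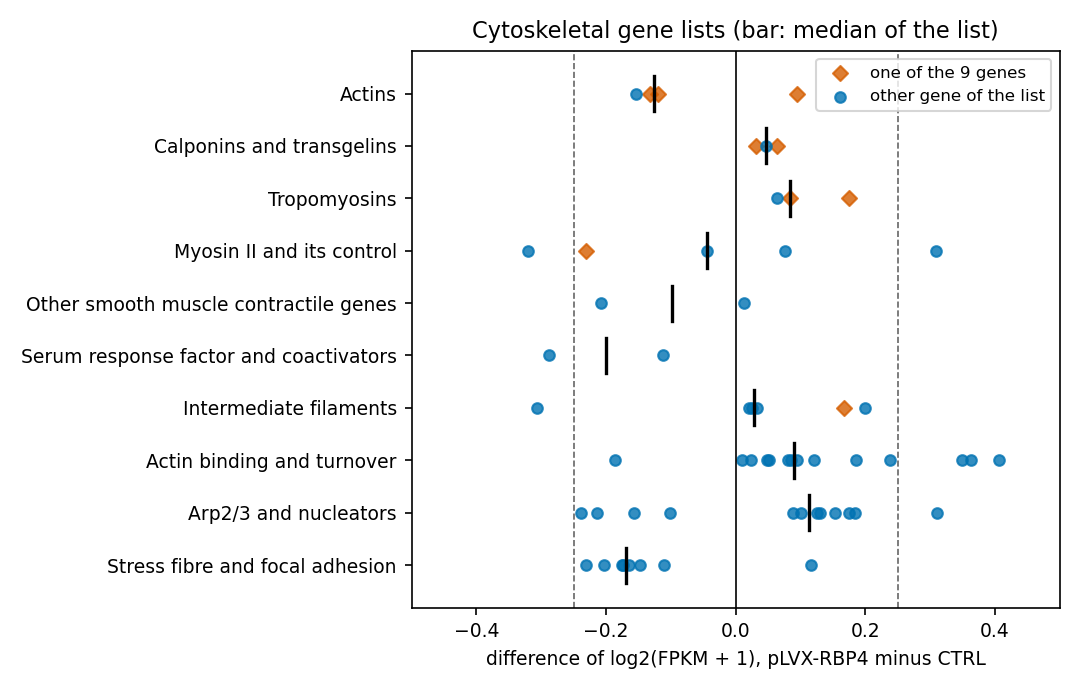
Difference of log2(FPKM + 1), pLVX-*RBP4* minus CTRL, for the genes of the 10 cytoskeletal lists with a mean of at least 1 FPKM, diamonds for the 9 genes, circles for other genes, black bars for list medians and dashed lines at -0.25 and 0.25. The stress fibre and focal adhesion list lies left of 0 with 7 of 8 genes, and the actin binding and turnover list lies right of 0 with 13 of 14. Of all 12382 genes, 49.8% were lower and 50.2% higher, and of the 1092 with a mean of at least 100 FPKM, 32.9% and 67.1%.

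The identity of the cells was checked on marker lists. Of 13 granulosa markers 7 were found by symbol, and all 7 were above 1 FPKM in both groups, led by *GATA4* (59.2 and 57.8 FPKM) and *WT1* (38.6 and 36.3 FPKM), both transcription factors of these cells. *FSHR*, the receptor of follicle-stimulating hormone, had 9.99 and 8.47 FPKM (-0.21), and *FST* (follistatin) had the largest difference, 0.26. Of the 7 markers, 2 were higher and 5 lower, with a median of -0.054, beside 49.8% lower among all 12382 genes. After scaling to a common sum (TPM), 4 were higher and 3 lower. *FOXL2*, *CYP19A1* and *AMH* were not found by symbol and are not analysed here. The list summed to 170.0 FPKM in CTRL and 167.2 FPKM in pLVX-*RBP4* cells.

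Markers of other cells were present to different degrees. Of the theca list, *INSL3*, the hormone of theca cells, was listed at 0 in CTRL and had 0.292 FPKM in pLVX-*RBP4* cells. *LHCGR* had 0.209 and 0.0937 FPKM, and *CYP17A1* was not found by symbol. The theca list summed to 43.8 and 40.2 FPKM, most of it from *NR5A1* (31.1 and 28.1 FPKM), which GCs also express, and *NR2F2* (10.1 and 9.74 FPKM). The smooth muscle and pericyte list summed to 128.1 FPKM in CTRL and 111.9 FPKM in pLVX-*RBP4* cells. As deposited, 3 of 5 kept genes were lower, beside 49.8% of all 12382 genes. The 2 higher ones were *CSPG4* (1.88 and 2.30 FPKM, 0.20) and *MCAM* (6.46 and 6.85 FPKM, 0.073). In that list *SMTN* accounted for most of the sum, followed by *NOTCH3* (15.8 and 13.3 FPKM). *MYH11*, the heavy chain of smooth muscle myosin, had at most 2.17 FPKM. *DES*, which is a gene of muscle in general, had at most 0.584 FPKM. Beside them, *ACTA2* had 644.1 and 687.8 FPKM. *RGS5* and *LMOD1* were not found by symbol.

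Fibroblast and stromal markers ranged widely in level, from *FAP* (0.254 FPKM in CTRL and 0.436 FPKM in pLVX-*RBP4* cells) to *COL3A1*. Their list of 13 had 10 genes found and 9 kept, of which 7 were higher and 3 past 0.25, with a median of 0.22 (6 or 7 higher under each scaling) and the largest difference for *LUM* (6.82 and 9.10 FPKM, 0.37). Of all 12382 genes, 50.2% were higher and 12.2% past 0.25 upward, and of the abundant genes 67.1% and 17.9%. The fibroblast and stromal list summed to 1343 FPKM in CTRL and 1526 FPKM in pLVX-*RBP4* cells, 1.14 times as much. Bulk RNA does not show whether GCs or other cells made this RNA. Sums of lists with different genes do not measure shares of cell types. *COL3A1*, a fibrillar collagen, had 525.1 and 611.2 FPKM (0.22), *FN1* (fibronectin) 314.5 and 319.0 FPKM, and *DCN* (decorin) 168.6 and 210.1 FPKM (0.32), while the receptors *PDGFRA* (12.6 and 11.2 FPKM, -0.16) and *PDGFRB* (19.7 and 18.5 FPKM, -0.089) were lower. *COL1A1*, *THY1* and *TCF21* were not found by symbol. The sum of the list moved in the same direction as *VIM*, and its part in the differences of the 9 genes was not tested. Endothelial markers summed to 19.9 and 19.0 FPKM, from *PECAM1* (16.3 and 16.0 FPKM) and *KDR* (3.55 and 3.03 FPKM, -0.17). Immune markers summed to 47.6 and 54.1 FPKM, most of it from *CD14* (42.9 and 48.9 FPKM, 0.18) and *CD68* (4.02 and 4.59 FPKM), while *PTPRC*, which defines white blood cells, was below 0.25 FPKM in both groups.

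**Figure D5:**
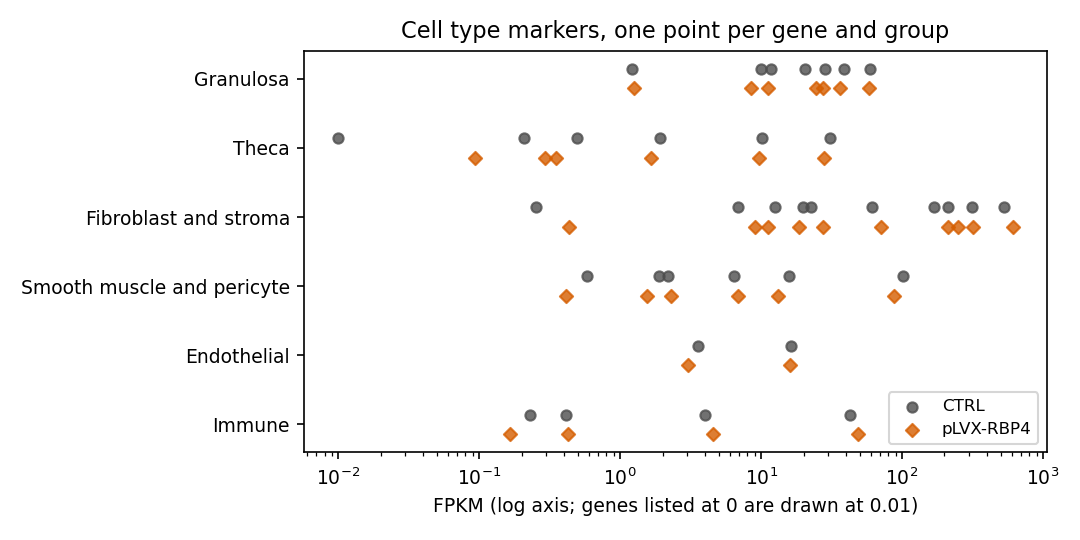
FPKM on a log axis of the cell type markers found by symbol, 1 point per gene and group, circles for CTRL and diamonds for pLVX-*RBP4*, with genes listed at 0 drawn at 0.01. The fibroblast and stromal list reaches above the granulosa list, up to *COL3A1* at 525.1 and 611.2 FPKM, and the single point at 0.01 is *INSL3* in the CTRL group. The lists hold different genes, so their levels do not measure shares of cell types.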

How the data were processed

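RNA of 3 pLVX-*RBP4* and 3 CTRL cultures was sequenced with paired ends. According to the study's methods, TopHat2 placed the filtered reads on Sscrofa10.2, and Cuffdiff (Cufflinks) compared the groups. The authors deposited FPKM, 1 value per gene and group. The library kit named does not mark strand. The versions of these tools and the annotation release are not given in the sources used here. The 2 columns of values were used and 0 left out.

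Symbols came from a table of Ensembl gene names, which named 10489 of 17950 genes (8024 of the 12382 with a mean of at least 1 FPKM). The planned limma fit could not be made with 1 value per group. Differences of log2(FPKM + 1) were computed instead. Sizes of 0.25 and 0.5 were used to count genes. The 9 genes and all lists were chosen with earlier results of these data known. From each list the 2 most abundant genes and the one with the largest difference were named, and the 3 genes nearest to *MYH9*. Other genes, the limit of 100 FPKM and the ratios pointed out as such were chosen after the values were seen. A planned list and a gene of another list are not reported here. The planned ratio of *MYL9* to *MYH9* could not be computed. No sequence of these genes and no coordinates on Sscrofa10.2 were used. Alternatives were pseudocounts of 0.1 and 0.01, no filter, a mean of at least 5 FPKM, and scaling to a common median, upper quartile, sum (TPM), or sum without the 10 most abundant genes. A log2 value was taken as moved at 0.1, and a count or level at 1.5 times. Python 3.11.15, numpy 2.4.6, pandas 2.3.3 and matplotlib 3.10.9 were used.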

Additional observations from a re-analysis of the deposited data

How the results depend on the processing

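No paired analysis was possible because the table holds 1 value per gene and group, and for the same reason no library could be left out. Pseudocounts, filters, and scaling to a common median moved none of the differences, medians or ratios given for the 9 genes and the lists by 0.1 or more, and neither did 1 FPKM added to both genes of a ratio or TPM in place of FPKM as a level. Of 271 values under alternatives, 30 moved. The count of the 9 genes past 0.25 was 1 after upper quartile scaling (*MYH9*, -0.27) and 1 after scaling to a common sum (*TPM2*, 0.25). The other 28 moved values came from scaling to a common sum without the 10 most abundant genes. This setting lowers every gene, the median of the 12382 genes from 0.0014 to -0.12, since it multiplies the values of 1 group by a constant. There, 2 of the 9 genes were higher and 7 lower, and 3 were past 0.25. The differences were -0.044 for *ACTA2*, -0.26 for *ACTB*, -0.27 for *ACTG1*, -0.075 for *TAGLN* and for the median of the 9, -0.10 for *CNN1*, -0.054 for *TPM1* and for the tropomyosin median, 0.036 for *TPM2*, 0.029 for *VIM* and -0.37 for *MYH9*. Other list medians were -0.26 for actins, -0.092 for calponins and transgelins, -0.18 for myosin II, -0.24 for other smooth muscle genes, -0.33 for *SRF* and coactivators, -0.10 for intermediate filaments, -0.048 for actin binding and turnover, -0.022 for Arp2/3 and nucleators, -0.31 for stress fibres and focal adhesion, -0.19 for granulosa, 0.080 for fibroblast and stroma, -0.34 for smooth muscle and pericyte, -0.22 for endothelial and 0.045 for immune markers. Relative to the median of all genes, *ACTA2*, *TAGLN*, *CNN1*, *TPM1*, *TPM2* and *VIM* were above it and *ACTB*, *ACTG1* and *MYH9* below it there too. That follows from the constant, which shifts each gene and the median nearly alike, and adds no support. As deposited, *TAGLN* (0.064) and *TPM1* (0.0840) were below the median of 0.0844 of the genes with a mean of at least 100 FPKM. Differences as small as those of the 9 genes cannot be told from variation between libraries with these values.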
